A study of Mus musculus with 2 samples.

Results

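The barcodes described here are those of mouse small intestinal organoids in which over 20% and up to 50% of the unique molecular identifiers (UMIs, each standing for 1 captured RNA molecule) fell on the 13 genes of the mitochondrial genome whose symbols start with mt-. They also had to hold at least 500 detected genes and at least 1000 UMIs. By this rule 4353 barcodes were found among 21806 in the matrix, of which 13847 passed the gene and UMI minimum. Each barcode sequence ends in a suffix of 1 or 2, and the barcodes of the first suffix (set 1) and the second (set 2) are described apart, with 2467 and 1886 barcodes of the kind described. These made up 28.4% to 30.3% of the barcodes past the minimum in set 1 and 33.4% to 36.0% in set 2 (95% exact Clopper-Pearson intervals around 29.3% and 34.7%). They were compared with the 2300 and 1766 barcodes at up to 20%, called the comparison barcodes. The barcodes were thus chosen by their measured mitochondrial share and their numbers of genes and UMIs, and these values are given only as a description.

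Organoids of the small intestine are closed epithelial structures grown from crypt cells, without blood vessels, immune cells or connective tissue. They hold stem cells, dividing progenitors, absorptive enterocytes, mucus-making goblet cells, Paneth cells that release antimicrobial peptides, and hormone-making enteroendocrine cells. Mitochondrial messages sit inside the organelle while most other messages sit in the cytoplasm, so the mitochondrial share of a droplet depends on how much of each was captured, and it is commonly used as a filter when cells are selected. A high share occurs in cells whose membrane has leaked and also in cells rich in mitochondria.

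The labels list 1 control library and 1 library from melatonin-treated organoids, each prepared on culture day 3 from pooled cells of 3 organoid lines, and the study's title concerns regeneration and the transcriptional regulator YAP. The deposited files of both samples were identical (3 of 3 file pairs), and nothing in them tied a suffix to a treatment. The matrix was therefore treated as 1 sample, no effect of melatonin was examined, and no test was possible. Cells of 1 matrix are not replicates, all intervals cover counting error only, and agreement between the sets is given as a description. Of the barcode sequences described here, 7 in set 1 and 9 in set 2 also occurred with the other suffix.

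The 20 to 50% barcodes were much shallower than the comparison barcodes, and nearly all of the difference lay in UMIs outside the mt- genes. Their median was 4750 UMIs in set 1 and 5559 in set 2, against 29872 and 28759 in the comparison barcodes. Outside the mt- genes the medians were 2763 and 3315 UMIs, against 26763 and 25664.5. On the mt- genes themselves they held 1930 and 2202.5 UMIs, against 2817.5 and 2726. The median number of genes detected was 1300 and 1542.5, against 4705.5 and 4722.5. At an equal depth of 1000 UMIs outside the mt- genes, however, the expected number of genes was slightly higher than in the comparison barcodes, with medians of 598 and 611 against 567 and 576. Because of their low depth these barcodes gave 14.9% and 16.7% of all UMIs of their set, and the comparison barcodes 57.1% and 59.4%.

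**Figure D1:**
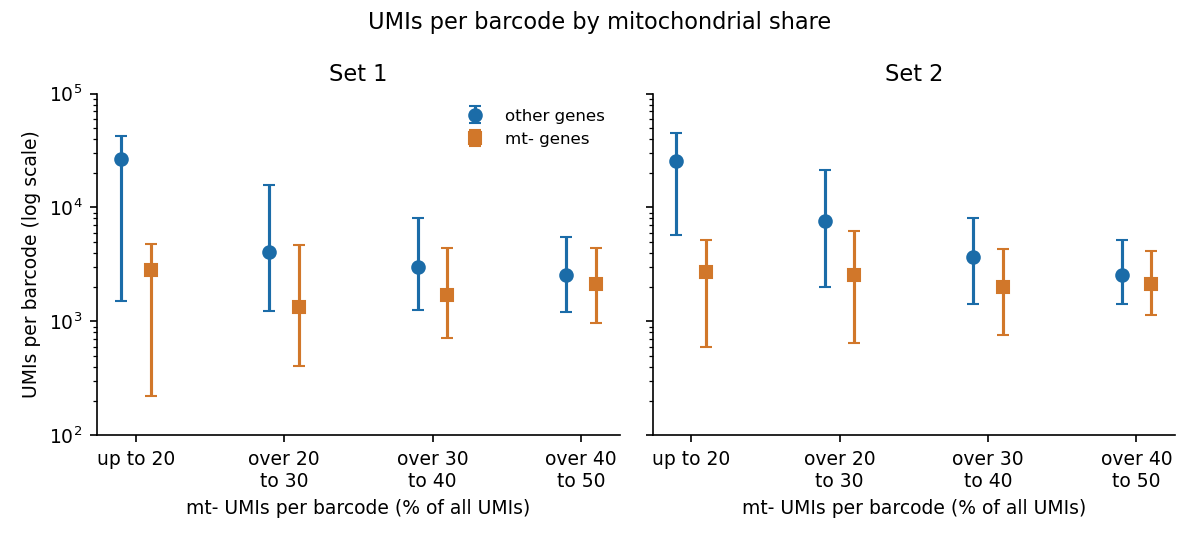
UMIs per barcode on the mt- genes and on all other genes (log scale) in the comparison barcodes at up to 20% and in 3 ranges of mitochondrial share, for each set; points are medians and bars run from the 10th to the 90th percentile over barcodes. The median outside the mt- genes was 26763 and 25664.5 UMIs at up to 20%, and 2561 and 2558.5 at over 40 to 50%, while the mt- median lay between 1345 and 2817.5 throughout.

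Within the window the number of barcodes grew with the mitochondrial share, from 549 and 452 at over 20 to 30%, through 755 and 570, to 1163 and 864 at over 40 to 50%. The median of UMIs outside the mt- genes was 4041, 2997 and 2561 over these ranges in set 1 and 7556, 3638.5 and 2558.5 in set 2. In set 1 the median on the mt- genes went the other way, from 1345 to 2116, and in set 2 it was 2558, 2018 and 2143.5. Just outside the lower limit, at 18 to 20%, the median total was 8645 and 15452 UMIs (112 and 106 barcodes), and just inside, at up to 22%, 5346 and 13772 (104 and 99 barcodes). At the upper limit it was 4601 and 4747 inside and 4431 and 4816 just above. Another 51 and 127 barcodes fell in the window of mitochondrial share but missed the gene or UMI minimum.

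The 13 mt- genes kept close to the same proportions among themselves. The most abundant, mt-Atp6, a subunit of the ATP synthase, took 21.7% of mt- UMIs in both sets, against 20.8% in both sets of comparison barcodes. The gene with the largest relative gain was mt-Atp8, a small subunit of the same enzyme, at 0.406% and 0.414% against 0.330% and 0.333%. A subunit of respiratory complex I, mt-Nd1, took less, at 7.36% and 7.12% against 8.16% and 7.67%. No mt- gene differed by 1.5-fold.

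Gene content was summed over barcodes and scaled to 1000000 UMIs outside the mt- genes (CPM). Genes with a mean of at least 5 CPM over both groups and sets were described, 9838 in all, and a gene was counted as higher or lower where the ratio of CPM plus 1 passed 1.5-fold in the same direction in both sets. By this count 2178 genes (22.1% of those described) were higher in the 20 to 50% barcodes and 223 (2.27%) were lower. The median log2 ratio over all genes was 0.30 in set 1 and 0.34 in set 2, and after centring on it 687 genes were higher and 1023 lower. Without the ribosomal protein genes in the denominator the split was 1360 higher and 578 lower. Across the genes described, the log2 ratios of the sets had a Pearson correlation of 0.88, over genes that share a pool of barcodes and a denominator. Depth moved with every one of these values, so most groups of genes are also given against comparison barcodes in the same range of depth, called range-matched, which lay between the 10th and 90th percentile of total UMIs of the barcodes described (1981.6 to 13443 in set 1 and 2431 to 14436 in set 2). There were 346 and 277 of these, with medians of 7157 and 10487 UMIs and a mitochondrial share of 9.68% and 10.6%. They were still deeper than the barcodes described, with medians of 6504.5 and 9183 UMIs outside the mt- genes, so depth was matched as a range only. Of them 102 and 119 were enteroendocrine-high, with at least 10 UMIs of 12 marker genes per 1000 UMIs outside the mt- genes and at least 5 in all, so another comparison left such barcodes out of both groups (244 and 158 comparison barcodes left, with medians of 5533.5 and 7544 UMIs). Those comparison barcodes still held much hormone RNA: a list of gut hormone genes summed to 4066 and 3678 CPM there, against 314 and 223 in the barcodes described.

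Against the range-matched barcodes 1180 genes (11.4%) were higher and 1334 (12.9%) lower, and the median over all genes was 0.01 and 0.03. Of the genes counted against all comparison barcodes, 479 of the 2178 higher and 112 of the 223 lower were counted again. With enteroendocrine-high barcodes also left out, 441 (4.44%) were higher and 191 (1.92%) lower, and 258 of the higher ones were among the original 2178.

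Transcripts that resemble ribosomal RNA were among the genes with the highest ratios. Gm42418, AY036118 and Gm26917 are annotated non-coding genes known to carry sequence of the ribosomal RNA repeat, so their counts can hold reads of ribosomal RNA itself and are uncertain as single genes; Gm42418 and AY036118 also overlap on opposite strands. Gm26917 stood at 22325 CPM in set 1 and 24363 in set 2 (exact Poisson intervals 22233 to 22416 and 24264 to 24463), against 1182 and 1143 in the comparison barcodes, a log2 ratio of 4.24 and 4.41. Gm42418 stood at 33745 and 38076 CPM against 3384 and 3910, a log2 ratio of 3.32 and 3.28. Both were present in nearly every barcode, and 3 barcodes held no more than 1.40% of the UMIs of Gm26917. Lars2, which encodes the mitochondrial leucyl-tRNA synthetase, stood at 1532 and 1946 CPM against 141 and 158. AY036118 was at 1395 and 1039 CPM against 192 and 178. The other genes of the upper end were less abundant: Ccnb1ip1, a ubiquitin ligase gene, stood at 104 and 169 CPM against 19.2 and 20.03, and AL732506.1, a non-coding gene antisense to Ccdc107, at 131 and 161 against 14.7 and 9.69. Neither passed 1.5-fold in both sets against range-matched barcodes without enteroendocrine-high ones, where Ccnb1ip1 was at −0.32 and 0.72 and AL732506.1 at 0.11 and 1.09.

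The 3 ribosomal-RNA-like genes together took 5.75% and 6.35% of UMIs outside the mt- genes, against 0.476% and 0.523% in the comparison barcodes. Their share grew with the mitochondrial share of the barcodes, to 34394, 60770 and 78534 CPM over the 3 ranges in set 1 and to 32062, 73259 and 105315 in set 2. It was uneven among barcodes: over barcodes with at least 1000 UMIs outside the mt- genes, the 10th and 90th percentiles were 1.003% and 24.96% in set 1, and 0.966% and 29.1% in set 2, with medians of 5.90% and 6.54%. The median in the comparison barcodes was 0.32% in both sets. Over all barcodes of each group, without this depth limit, 50.9% and 72.7% of those described lay above the 90th percentile of the comparison barcodes (5.76% and 2.77%). Against range-matched barcodes the 3 genes were still higher, but by less: their sum was 2.73% and 2.18% there. With enteroendocrine-high barcodes left out as well, it was 5.86% and 6.40% against 3.94% and 3.70%, and 1 of the 3 genes, AY036118, passed 1.5-fold in both sets.

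**Figure D2:**
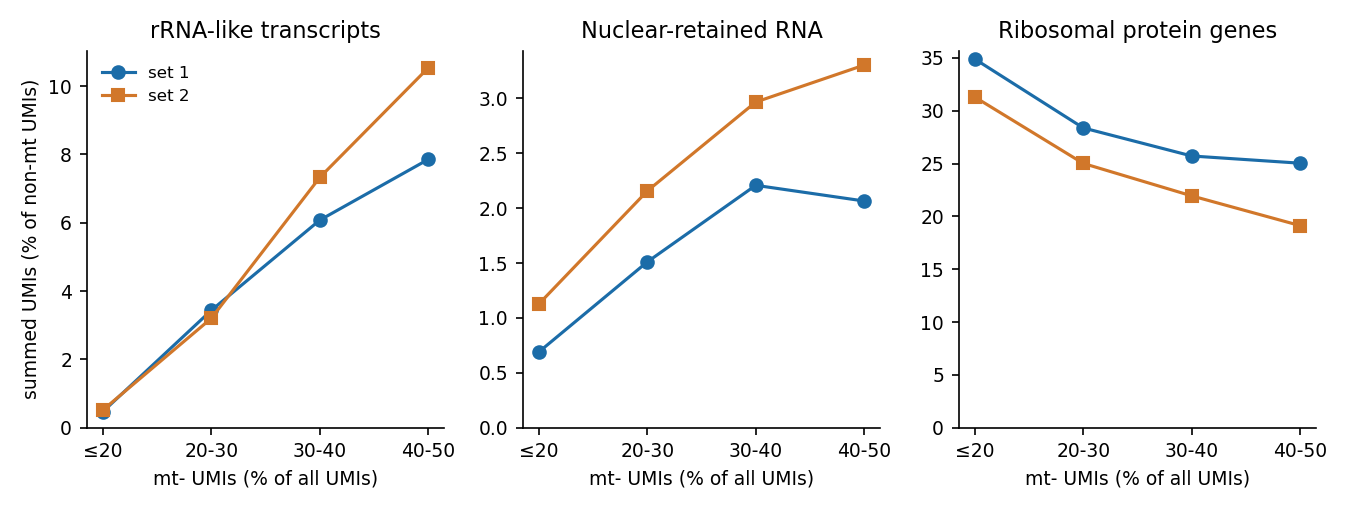
Summed UMIs of the 3 ribosomal-RNA-like transcripts, the nuclear-retained RNAs and the ribosomal protein genes, as a percentage of UMIs outside the mt- genes, in the comparison barcodes (≤20) and in 3 ranges of mitochondrial share, for each set. Ribosomal-RNA-like transcripts climbed from 0.476% and 0.523% at up to 20% to 7.85% and 10.5% at over 40 to 50%, and ribosomal protein genes went down to 25.03% and 19.1%.

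RNAs that stay in the nucleus formed another higher group, and 5 of 5 listed genes described passed 1.5-fold, against 22.1% higher over all genes. Malat1, an abundant non-coding RNA of nuclear speckles, stood at 14445 and 22419 CPM against 5330 and 9560 in the comparison barcodes. Xist, the RNA that coats the inactive X chromosome, stood at 3830 and 3581 CPM against 1213 and 1205, and at a depth of 1000 UMIs it was found in 81.7% and 86.1% of barcodes against 66.8% and 67.4%. Neat1, the scaffold of paraspeckles, was at 558 and 694 CPM against 297 and 432. Tsix and Kcnq1ot1 had log2 ratios of 1.87 and 1.53, and of 1.72 and 0.97; Xist and Tsix lie antisense to each other, and the use of strand in the counting is not given in the sources used here. The group summed to 1.91% and 2.69% against 0.691% and 1.13%.

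The difference of Xist held in each of the other comparisons, at 1852 and 1854 CPM in range-matched barcodes and at 1923 and 1803 CPM once enteroendocrine-high barcodes were left out, where its log2 ratio was 1.0 and 0.99. The nuclear group as a whole did not behave in 1 way: its sum in range-matched barcodes was 1.91% and 2.88%, about the level of the barcodes described, while its median log2 ratio was 1.05 and 0.95, with 3 genes higher and 1 lower (11.4% and 12.9% over all genes). Without enteroendocrine-high barcodes 3 of 5 were higher (4.44% over all genes) and none lower, with a median of 1.0 and 0.92.

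Histone genes were read in 2 lists, by how their messages end, both drawn up after histone genes had been seen among the named genes; the difference between the lists was not tested. The replication-dependent histone messages, which lack a poly(A) tail in dividing cells, were higher in 39 of 48 genes described, against 22.1% over all genes, and none was lower. Hist1h1d, a linker histone, stood at 62.8 and 69.4 CPM against 18.6 and 15.6. Hist1h2ac, a core histone, was at 67.1 and 67.6 CPM against 22.1 and 15.8. Together the replication-dependent genes summed to 1528 and 1929 CPM against 786 and 702. Of the 6 variant histone genes with polyadenylated messages none was higher and 2 were lower, against 2.27% lower over all genes. These were H2afz at 1110 and 811 CPM against 1756 and 1389, and H3f3a at 819 and 685 against 1293 and 1182. The other 4 did not pass, and H1f0 had log2 ratios of 0.011 and 0.26. Against range-matched barcodes 16 of 50 replication-dependent genes were higher, against 11.4% over all genes, and 2 lower, against 12.9%. Without enteroendocrine-high barcodes 2 of 51 were higher, a share near the 4.44% over all genes, and 1 was lower (1.92% over all genes), with medians of −0.09 and 0.40. Of the 6 polyadenylated variants 1 was lower against range-matched barcodes (12.9% over all genes) and none without enteroendocrine-high ones.

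The summed messages of the ribosomal proteins took a smaller share of UMIs in the 20 to 50% barcodes. Of 80 ribosomal protein genes 23 were lower, none was higher and 57 did not pass 1.5-fold, where 2.27% of all genes were lower and 22.1% higher, with a median log2 ratio of −0.42 and −0.51, and they took 26.4% and 22.5% of UMIs outside the mt- genes against 34.9% and 31.3%. Rps15a, of the small subunit, stood at 2879 and 2058 CPM against 5131 and 4392. Rps2 was at 3860 and 2898 CPM against 6688 and 5918. Some members lay above 0, such as Rpsa at log2 ratios of 0.21 and 0.71. Across the 3 ranges of mitochondrial share the summed share went from 28.4% to 25.03% in set 1, and in set 2 from 25.01% to 19.1%. Of 10 translation factors and associated genes, Tpt1, Naca and Npm1 were lower and none higher, and none of the 10 passed in either range-matched comparison. In range-matched barcodes ribosomal protein genes took 26.9% and 21.8%, none passed 1.5-fold, and their median was 0.00 and 0.02. With enteroendocrine-high barcodes left out they took 26.8% and 22.8% against 33.6% and 29.9%, with 4 of 80 lower, against 1.92% of all genes.

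Most mitochondrial proteins are encoded in the nucleus, and their messages were not used to choose the barcodes. Over all genes 22.1% were higher and 2.27% lower. Of 77 nuclear genes of the respiratory chain none was higher and 1, Atp5g2, a subunit of the ATP synthase, was lower, at 499 and 409 CPM against 811 and 704. The 77 had a median log2 ratio of −0.19 and −0.31 and summed to 3.76% and 3.35% against 4.29% and 4.21%. Among 20 genes of protein import, chaperones and matrix enzymes, Lonp1, a matrix protease, was higher at 179 and 171 CPM against 85.3 and 80.8, as was Polrmt, the mitochondrial RNA polymerase. Tomm22, a subunit of the import pore, was lower at 180 and 164 CPM against 302 and 278. None of 10 genes of mitochondrial fission, fusion and mitophagy passed 1.5-fold. Against range-matched barcodes, where 11.4% of all genes were higher and 12.9% lower, the median of the respiratory chain list turned in sign, with 4 of 77 genes higher, 1 lower, medians of 0.25 and 0.17 and a summed share of 3.76% and 3.35% against 3.26% and 3.08%. There 4 of 20 import and matrix genes were higher and none lower, and 3 of 10 fission, fusion and mitophagy genes were lower. With enteroendocrine-high barcodes left out as well (4.44% and 1.92% over all genes), none of 78 respiratory chain genes passed, with medians of 0.14 and 0.020, 1 of 21 import and matrix genes was higher, and none of the 10 fission, fusion and mitophagy genes passed.

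The ratio of a gene moved with the length of its longest annotated transcript. Over 9603 protein-coding genes without ribosomal proteins, the median log2 ratio was −0.26 and −0.39 for transcripts of up to 1000 bases, 0.25 and 0.29 for over 2000 to 4000 bases, and 0.68 and 0.74 above 8000 bases. In the longest class 55.4% of 563 genes were higher and 0.71% lower, and in the shortest 8.39% of 417 were higher and 12.5% lower. Over all genes described 22.1% were higher and 2.27% lower. Spearman's correlation of length and ratio across genes was 0.49 and 0.52, a description over genes that share libraries and denominator. It was 0.38 and 0.40 among barcodes high in enterocyte markers and 0.20 and 0.20 among enteroendocrine-high ones. Against range-matched barcodes it was −0.04 and −0.03, and 0.08 and 0.15 with enteroendocrine-high barcodes left out. Among 143 long non-coding, antisense and processed transcripts 56 (39.2%) were higher and 1 was lower against all comparison barcodes, where 22.1% and 2.27% of all genes were.

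**Figure D3:**
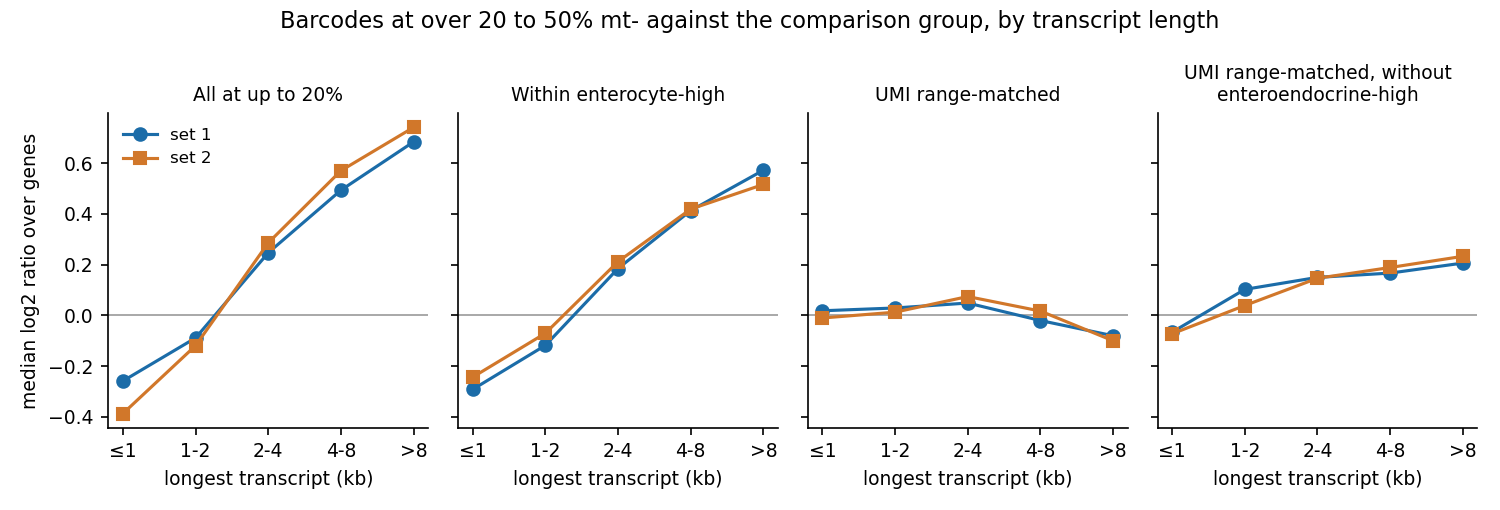
Median log2 ratio over protein-coding genes without ribosomal proteins, by the length of the longest annotated transcript (kb), against 4 groups of comparison barcodes; circles are set 1 and squares set 2. The medians ran from −0.26 and −0.39 to 0.68 and 0.74 against all comparison barcodes, and lay near 0 in each length class against range-matched ones.

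Genes of enteroendocrine cells were lower when summed over barcodes. Of 12 markers 11 were lower and none higher, against 2.27% lower over all genes, with medians of −1.20 and −1.92, and the 12 summed to 2517 and 1721 CPM against 6773 and 11996. Cck, the hormone cholecystokinin, stood at 714 and 352 CPM against 2426 and 6138. Gip, the glucose-dependent insulinotropic hormone, was at 256 and 149 CPM against 875 and 1158. Chgb and Chga, which encode granins of the secretory granule, were at 1303 and 1016 CPM against 3280 and 3704, and at 178 and 141 CPM against 421 and 655. The transcription factor Insm1 and Tph1, the enzyme that starts serotonin synthesis, were lower too, with log2 ratios of −1.20 and −1.74, and of −1.45 and −1.36.

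A few barcodes held a large part of some of these UMIs. Gip was found in 849 and 659 of the 20 to 50% barcodes, and 3 of them held 38.6% and 28.8% of its UMIs. Tph1 was found in 75 and 73, and 3 barcodes held 29.9% and 58.3%. Cck was found in 1149 and 1182, and 3 barcodes held 39.3% and 13.4%. Vim, which encodes vimentin, followed the same pattern, at 22.6 and 17.4 CPM against 85.2 and 72.6. Among 6 gut hormones, Tac1, Ghrl and Gip were lower (2.27% over all genes) and Nts was higher (22.1% over all genes), but 3 barcodes held 89.2% and 95.9% of the Nts UMIs. When the enteroendocrine-high barcodes were left out of both groups, the medians of the marker list were 1.54 and 1.001. These barcodes were defined by the same 12 markers and made up 2.96% and 2.86% of the barcodes described but 12.3% and 16.2% of the comparison barcodes, so this change of sign follows in part from the choice of barcodes left out and is not read as a difference between the groups. Chgb then had log2 ratios of 1.88 and 1.54, Cck of 2.11 and 1.94 and Vim of 1.30 and 1.02, while Insm1 was at 0.03 and 0.02. In range-matched barcodes without enteroendocrine-high ones, 8 of 12 markers were lower, against 1.92% over all genes. The barcodes left out were again chosen by these 12 markers, so this count is not read as a difference between the groups either. Gip had log2 ratios of −4.23 and −4.53 there, but Cck was at 0.11 and 0.51 and Chgb at −0.06 and −0.20.

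Genes of absorptive enterocytes were higher in 7 of 12 markers and lower in none, against 22.1% higher over all genes, with medians of 0.80 and 0.81. Their sum differed less, at 4469 and 7062 CPM against 4003 and 6235, or 1.12- and 1.13-fold. Apoa4, an apolipoprotein of dietary fat absorption, stood at 541 and 1019 CPM against 242 and 470. Slc5a1, the sodium-coupled glucose transporter, was at 218 and 276 CPM against 102 and 129. Alpi, Anpep, Lct, Sis and Apoa1, among them enzymes of the brush border, were also higher. Fabp1, a fatty acid-binding protein and the most abundant of the 12, was not, at 1490 and 2215 CPM against 1643 and 2877, nor were Fabp2, Rbp2, Vil1 and Apoc3. A separate brush border list had 5 of 10 genes higher and none lower, among them Cdhr2, a cadherin that links microvilli, at 112 and 168 CPM against 52.5 and 85.3. Against range-matched barcodes 10 of 12 enterocyte markers were higher, with medians of 1.36 and 1.68 and 11.4% higher over all genes, and 10 of 12 again (4.44% over all genes) without enteroendocrine-high barcodes, where the summed markers stood at 4564 and 7195 CPM against 2574 and 3785. The brush border list had 5 of 10 genes higher and 1 lower in the former comparison, and 6 higher and none lower in the latter.

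Markers of dividing cells were mixed. Mki67, the Ki-67 antigen, stood at 287 and 343 CPM against 150 and 126, and Top2a, topoisomerase II alpha, at 319 and 372 against 174 and 166. Ube2c, a ubiquitin-conjugating enzyme of mitotic exit, was at 476 and 381 CPM against 651 and 387, and Birc5, survivin, at 206 and 150 against 284 and 209. In all 2 of 10 proliferation markers, 2 of 12 genes of G2 and mitosis (Cenpe and Cenpf) and 1 of 12 of S phase (Pola1) were higher, and none was lower, no more than the 22.1% higher over all genes. In the proliferation and G2 lists the higher genes were all among those with a longest transcript over 4000 bases (2 of 4 in each list), and of the shorter ones 0 of 6 and 0 of 8 were higher. Other lists differed in this: 3 of 3 longer and 4 of 9 shorter enterocyte markers were higher, and 2 of 4 and 3 of 6 brush border genes. For junction genes it was 2 of 5 and 0 of 5, and for epithelial markers 1 of 1 and 0 of 6. All 10 proliferation markers were higher against range-matched barcodes, with medians of 1.09 and 1.35, and 3 of 10 once enteroendocrine-high barcodes were left out; over all genes 11.4% and 4.44% were higher in these comparisons. For G2 and mitosis these counts were 12 and 3 of 12, and for S phase 6 and 2 of 12. None of 7 stem cell markers passed 1.5-fold in both sets, and Lgr5, a receptor that marks crypt stem cells, was at 159 and 124 CPM against 116 and 77.1. Against range-matched barcodes 3 of 6 stem cell markers were higher, and 1 of 7 without enteroendocrine-high ones.

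Lists of stress and cell death were read against the 22.1% higher and 2.27% lower over all genes. None of 9 heat shock genes, 15 genes of the integrated stress and unfolded protein responses or 10 targets of p53 passed it. Of 14 immediate early genes Jun was higher, at 1249 and 1611 CPM against 799 and 972. Of 14 genes of the apoptosis machinery, Apaf1, the scaffold of the apoptosome, was higher at 14.2 and 19.2 CPM against 7.53 and 8.48, and Bax, which permeabilises the outer mitochondrial membrane, was lower at 119 and 149 against 183 and 242. Slc7a11, the cystine transporter, was the 1 higher gene of 11 targets of NRF2. Against range-matched barcodes 5 of 10 p53 targets, 4 of 15 stress response genes and 3 of 14 immediate early genes were lower, where 12.9% of all genes were, and without enteroendocrine-high barcodes 1, 0 and 0. In the latter comparison 2 of 9 heat shock genes and 1 of 15 stress response genes were higher, against 4.44% over all genes.

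Some lists tied to the study's question were also read. Of 5 YAP targets described, Cyr61 was higher at 34.3 and 80.4 CPM against 15.4 and 40.8, as was Crim1 at 42.5 and 47.4 against 20.8 and 14.7, where 22.1% of all genes were higher and 2.27% lower. Against range-matched barcodes 3 of 6 were higher and 2 lower, where 11.4% and 12.9% of all genes were. Neither Cyr61 nor Crim1 was higher in both sets against range-matched barcodes without enteroendocrine-high ones, where none of 5 was higher and 1 lower (4.44% and 1.92% over all genes). Of 6 markers of the revival state seen after injury, S100a6, Ly6a, Msln and Anxa1 were lower, against 2.27% over all genes, and S100a6 stood at 31.4 and 51.7 CPM against 83.9 and 189. Areg, the most abundant of these markers, was at 265 and 463 CPM against 157 and 414, so the summed list was higher in set 1 (318 against 275 CPM) although its median was −1.03. Few UMIs stood behind some of these values in the barcodes described: in set 2, 3 barcodes held 79.2% of 48 Ly6a UMIs and 55.3% of 490 S100a6 UMIs. Against range-matched barcodes 1 of 4 revival markers was lower and 1 higher (12.9% and 11.4% over all genes), with medians of −0.81 and 1.32, and S100a6 went opposite ways in the sets, at −1.07 and 1.67. Without enteroendocrine-high barcodes 1 of 4 was lower and none higher, and S100a6 was at −1.57 and 1.53. Among 10 genes of tight and adherens junctions Dsp and Cgn were higher, and of 6 genes of antigen presentation H2-K1 and Tap1 were, against 22.1% over all genes. Against range-matched barcodes 3 of 10 junction genes were higher and 1 lower, and 2 of 7 antigen presentation genes higher and 1 lower. Without enteroendocrine-high barcodes 0 of 10 and 1 of 6 were higher.

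**Figure D4:**
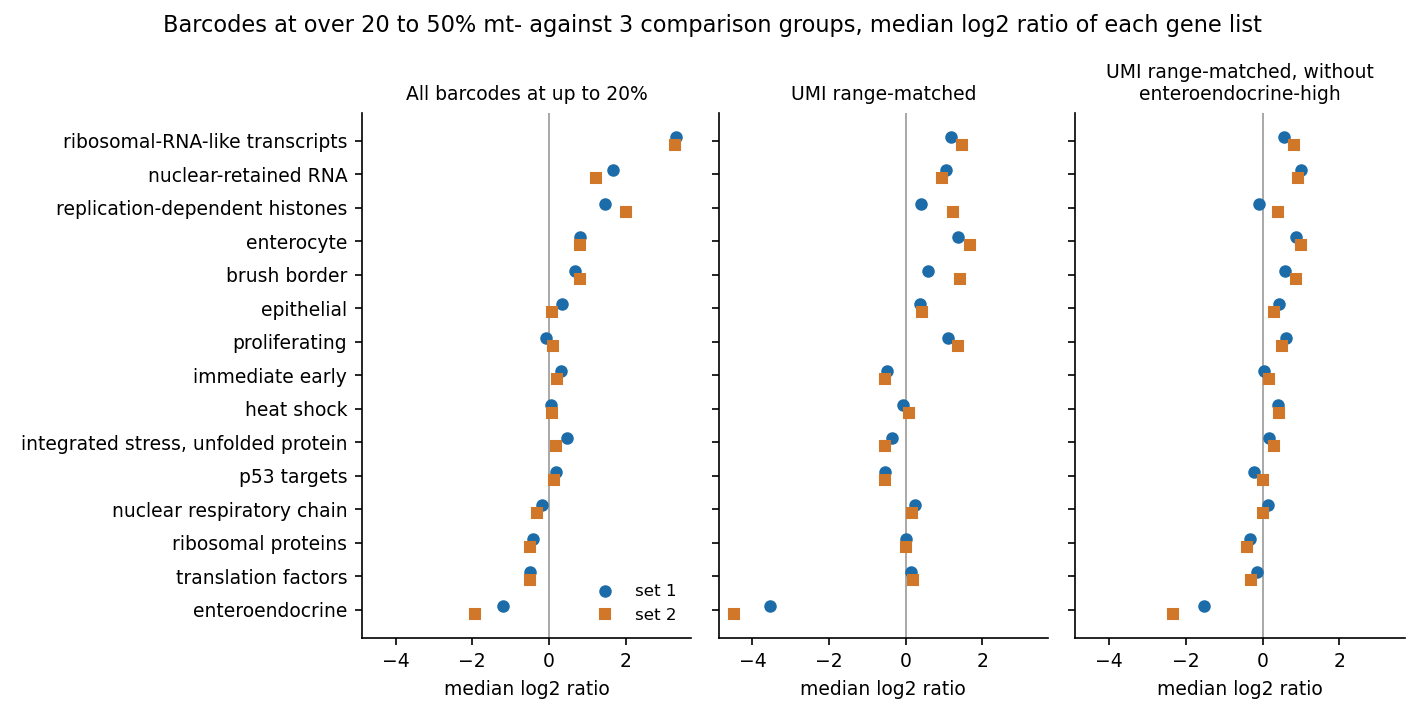
Median log2 ratio of each gene list in the 20 to 50% barcodes against all comparison barcodes, against range-matched ones, and against range-matched ones with enteroendocrine-high barcodes left out of both groups; circles are set 1, squares set 2. Enterocyte genes were above 0 in each panel, while ribosomal protein genes were at −0.42 and −0.51, 0.00 and 0.02, and −0.33 and −0.41.

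The barcodes described were epithelial by their markers. Epcam, the epithelial adhesion molecule, stood at 1582 and 1211 CPM against 1364 and 1192. Of 7 epithelial markers 1, Cdh1, was higher and none lower, no more than the 22.1% higher over all genes. Markers of cell types that organoids should lack were near 0: the immune list summed to 9.23 and 10.5 CPM against 6.31 and 5.66, with the pan-leukocyte gene Ptprc at 0, and the erythroid list to 0.194 and 0 CPM. The endothelial list summed to 5.92 and 4.32 CPM. The mesenchymal list, at 23.1 and 17.7 CPM, was almost wholly Vim, with the collagen gene Col3a1 and Dcn at 0.

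Cell type panels were then read per barcode at a fixed depth of 1000 UMIs outside the mt- genes, as the expected share of barcodes with at least 3 UMIs of a panel. Barcodes with fewer UMIs were left out, 50 and 53 of those described and 72 and 12 of the comparison barcodes. The epithelial panel was found in 86.5% and 89.1% of the barcodes described, against 84.7% and 88.7%. For the enterocyte panel the share was 38.4% and 27.7% against 30.8% and 23.8%, and without thinning it was 82.4% and 78.5% against 96.1% and 95.9%. Enteroendocrine-high barcodes held that panel in 33.3% and 22.2% of those described (median depth 2986.5 and 1986 UMIs). Of the comparison ones 17.7% and 12.02% held it (13394 and 14268.5 UMIs). In the barcodes described the enterocyte share thus lies close to that of enteroendocrine-high ones, while in the comparison barcodes it lies above it. How much of the panel enteroendocrine cells make themselves was not tested, and the share is not read as a share of enterocytes. For the enteroendocrine panel the share was 9.61% (interval 8.45% to 10.8%) and 9.58% (8.29% to 11.04%), against 15.2% and 17.9%, and without thinning 33.3% and 43.8% against 59.6% and 70.4%. Within enterocyte-high barcodes, where that panel should be absent, it was found in 0.943% and 0.804% of those described (median depth 5516 and 6987 UMIs) and 0.250% and 0.444% of the comparison ones (28891 and 29799 UMIs).

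The direction for the enteroendocrine panel depended on the threshold of UMIs. With at least 2 UMIs in place of 3 the share was higher in the 20 to 50% barcodes, by 2.44 and 1.11 percentage points. Per 1000 UMIs outside the mt- genes, the median of enteroendocrine UMIs was 0.53 in both sets against 0.13 and 0.15, but the 90th percentile was 2.18 and 2.09 against 44.1 and 78.0. These are rates at unequal depth, and 443 and 305 of the shallower barcodes described held no enteroendocrine UMI, against 220 and 113. At 1000 UMIs Cck was found in 21.5% and 27.2% of the barcodes against 11.2% and 14.2%, while Neurod1, a transcription factor of the lineage, was found in 1.29% and 1.32% against 5.58% and 6.86%.

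The proliferating panel was found in 25.8% and 28.3% of the barcodes described against 25.1% and 17.9%, and within enterocyte-high barcodes in 3.27% and 1.42% against 7.71% and 2.99%. Within enteroendocrine-high barcodes the order was the other way, at 3.71% and 3.58% against 0.851% and 0.431%. The stem panel was found in 3.98% and 4.70% against 2.37% and 1.72%, and within enterocyte-high barcodes in 0.362% and 0.180% against 0.0775% and 0.0390%. Goblet markers differed between sets, at 5.69% and 2.79% against 5.85% and 5.97%, and of the barcodes described they were found in 0.953% and 0.336% of the enterocyte-high and in 20.6% and 14.9% of the enteroendocrine-high ones. The Paneth panel was rare, at 0.723% and 0.741% against 1.58% and 1.97%, with 0.124% and 0.0840% in enterocyte-high barcodes and 0.377% and 2.50% in enteroendocrine-high ones (5.84% and 7.42% in those of the comparison barcodes). The goblet and Paneth shares are therefore not read as shares of those cells.

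**Figure D5:**
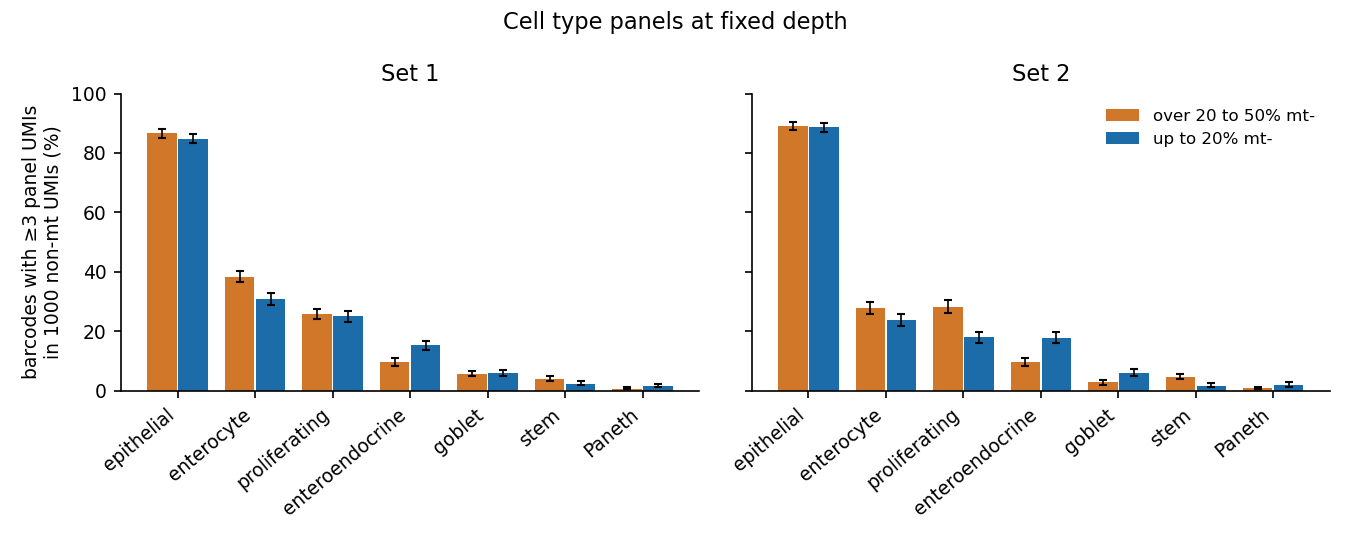
Expected share of barcodes (%) with at least 3 UMIs of each cell type panel in 1000 UMIs outside the mt- genes, in the 20 to 50% barcodes and the comparison barcodes of each set; bars start at 0 and error bars are 95% exact intervals that cover counting error only. The enteroendocrine panel stood at 9.61% and 9.58% against 15.2% and 17.9%, and the enterocyte panel at 38.4% and 27.7% against 30.8% and 23.8%.

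Barcodes with a high content of enteroendocrine or enterocyte markers were fewer among those described at the limit used. By the limit of at least 10 panel UMIs per 1000 and at least 5 in all, 73 (2.96%) and 54 (2.86%) of the barcodes described were enteroendocrine-high, against 284 (12.3%) and 286 (16.2%). For the enterocyte panel 103 (4.18%) and 145 (7.69%) were enterocyte-high, against 127 (5.52%) and 186 (10.5%); at 5 UMIs per 1000 it was 218 and 187, against 202 and 223. For the epithelial panel the numbers were 190 (7.70%) and 173 (9.17%), against 39 (1.70%) and 76 (4.30%), but this order depended on the limit: at 5 UMIs per 1000 they were 1385 and 1201 against 1037 and 1202, and at 20 they were 3 and 6 against 5 and 9. High for none of the enteroendocrine, enterocyte, goblet, Paneth and proliferating panels were 2258 (91.5%) and 1666 (88.3%), against 80.8% and 72.3%. Such a class is a range of a score and not a cell type: 20 and 13 of the barcodes described lay near the limit for the enteroendocrine panel, 32 and 10 for the enterocyte panel, and 371 and 290 for the epithelial panel, more than were counted as high for it.

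Within enteroendocrine-high barcodes, which had a median of 4618 and 3197.5 UMIs against 14495.5 and 15208.5, 733 of 10519 genes (6.97%) were higher in the 20 to 50% group and 551 (5.24%) lower. The 3 ribosomal-RNA-like genes were higher, with medians of 1.54 and 2.15. Of the 5 nuclear-retained RNAs 3 were higher, and the group took 6.88% and 9.83% of UMIs against 2.55% and 4.02%. None of 80 ribosomal protein genes passed 1.5-fold there. Of 11 genes of G2 and mitosis 6 were higher, and 3 of 10 proliferation markers. Lower there were 4 of 4 goblet markers, with medians of −0.91 and −1.57, 2 of 4 Paneth markers, 4 of 14 genes of the ER translocon and 7 of 77 nuclear genes of the respiratory chain, of which 1 was higher. The hormone Gip went opposite ways, at 2025 and 616 CPM against 1752 and 11293.

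Within enterocyte-high barcodes, with a median of 9084 and 11473 UMIs against 32841 and 34127, 1224 of 9147 genes (13.4%) were higher and 168 (1.84%) lower. The ribosomal-RNA-like genes were higher in 3 of 3, with medians of 2.80 and 2.48, and nuclear-retained RNAs in 5 of 5, with medians of 1.07 and 0.93. Xist stood at 1373 and 1342 CPM against 762 and 703. Ribosomal protein genes took 19.8% and 14.5% against 24.2% and 20.3%, and 2 of 80 were lower. Of genes low in this class, 3 of 3 gut hormones and 3 of 6 enteroendocrine markers described were higher in the 20 to 50% group, and Cck stood at 90.9 and 127 CPM against 36.6 and 59.2, and Chgb at 126 and 75.9 against 58.6 and 47.6. Of 10 proliferation markers 2 were lower.

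Among the 20 to 50% barcodes themselves, gene content differed between classes of depth. With the barcodes divided into 4 equal classes by total UMIs, the summed share of ribosomal-RNA-like transcripts was 15.7%, 14.8%, 6.02% and 2.19% in set 1 and 20.7%, 15.2%, 5.94% and 2.49% in set 2, from the shallowest to the deepest class. The median mitochondrial share of these classes was 36.6%, 41.4%, 42.2% and 34.1% in set 1 and 40.4%, 42.5%, 39.97% and 29.1% in set 2. Its Spearman correlation with total UMIs over the barcodes described was −0.05 in set 1 and −0.32 in set 2, so in set 2 the deeper barcodes had the lower mitochondrial share. Replication-dependent histone genes were highest in the second class and summed to 1999, 2919, 1791 and 1038 CPM in set 1 and to 4084, 4469, 2319 and 894 in set 2. Enterocyte markers were most abundant in the deepest class, at 5714 and 10212 CPM, against 2750 and 2540 in the shallowest. Across barcodes with at least 1000 UMIs outside the mt- genes (2417 and 1833), the ribosomal-RNA-like share had a Spearman correlation of −0.67 and −0.69 with depth, of −0.42 and −0.48 with the share of ribosomal proteins and of 0.37 and 0.49 with that of histones, all within 1 library pool and on a shared denominator. In the comparison barcodes the correlation with depth was −0.81 and −0.76.

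Barcodes above 50% mitochondrial, which numbered 3643 and 1785, had ribosomal-RNA-like transcripts at 104322 and 149660 CPM, above the highest range of the barcodes described. The enterocyte panel was found in 50.1% and 40.8% of them at the same depth.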

How the data were processed

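Single-cell 3' RNA libraries of pooled organoid cells were sequenced, and the authors deposited UMI counts per gene and barcode as whole numbers, per the file headers and values, with no normalization. The submitters' processing notes name Cell Ranger 3.1.0, bcl2fastq 2.20.0 and STAR 2.7.3a, and the genome build is not given in the sources used here. The matrix held 31053 genes, 21806 barcodes and 194068573 UMIs, and 30934 of the genes matched the mouse gene-name table by identifier.

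From the counts, UMIs were summed over the barcodes of each group and set and divided by the group's UMIs outside the 13 mt- genes (CPM). Ratios were taken on CPM plus 1, which understates those of low genes, and genes under a mean of 5 CPM were left out. Intervals are at the 95% level (exact Poisson for CPM, Clopper-Pearson for shares). Panel shares were expectations of thinning without replacement to 1000 UMIs. Named genes were the 12 highest and 12 lowest by the smaller ratio of the sets, among those at 50 CPM or more in either group with intervals apart in both sets; list members are examples. Of these 24 named genes, Gm26870, AL732506.1, B930036N10Rik, Gm42418, AY036118 and Xist overlap genes on the opposite strand. No doublet caller was run; an alternative left out the deepest 1% of barcodes.

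The rule for the barcodes and the 14 marker and 24 function lists were chosen with earlier results of these data known. The histone lists, the reading by transcript length, and the alternatives that centre ratios, drop shared barcode sequences, drop enteroendocrine-high barcodes, or drop these within the range-matched comparison were chosen after seeing the data. The ratio, thinning and rarefaction were tested on simulated data. Python 3.11.15, numpy 2.4.6, scipy 1.17.1 and pandas 2.3.3 were used.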

Additional observations from a re-analysis of the deposited data

Results flagged for a closer look

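In 6 genes the 20 to 50% barcodes stood past 1.5-fold above the comparison barcodes in set 1 and past 1.5-fold below them in set 2; the difference between the sets was not tested. Sst, the hormone somatostatin, had log2 ratios of 1.996 and −3.94, at 4.86 CPM against 0.468 in set 1 and 6.01 against 107 in set 2. Muc2 and Spink4, both goblet cell genes, had ratios of 1.63 and −1.13, and of 0.77 and −1.80. Sprr2a3 was at 1.05 and −0.59, Anxa3 at 0.59 and −1.40, and Abcc8, a subunit of a potassium channel, at 0.80 and −1.06. In Sst the comparison barcodes differed more between sets than the barcodes described did. Spink4 differed between sets in both groups: it stood at 414 and 134 CPM in the barcodes described and at 243 and 472 in the comparison barcodes.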

How the results depend on the processing

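Depth limits these results, since the barcodes described held a median of 2763 and 3315 UMIs outside the mt- genes. The main counts, 2178 higher and 223 lower, became 822 and 135 with a pseudocount of 10 CPM, 1180 and 1334 against range-matched barcodes, 1360 and 578 without ribosomal protein genes in the denominator, and 687 and 1023 after centring. Higher genes were 1129 at a mean of at least 20 CPM, a limit that also left fewer genes to be counted. They were 441 (4.44%) in the range-matched comparison without enteroendocrine-high barcodes. Lower genes were 403 with the mean of each barcode's own CPM and 141 with barcodes only up to 40%. Within enterocyte-high barcodes 99 genes in place of 168 were lower at 20 panel UMIs per 1000.

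The difference in the enteroendocrine panel, −5.60 and −8.31 percentage points, was −8.56 and −12.1 at 500 UMIs, −1.71 and −0.14 at 2000, −26.3 and −26.5 without thinning, and 2.44 and 1.11 with at least 2 UMIs. That of the enterocyte panel, 7.50 and 3.86, was 1.23 and −1.35 at 500 UMIs, 12.5 and 11.6 at 2000, −13.7 and −17.4 without thinning, and 9.25 in set 2 with at least 2 UMIs.

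Of 768 values of named genes under alternatives, 30 turned in direction, as did 84 of 1086 values of list medians, 6 of them among the 304 of lists past 1.5-fold. Without enteroendocrine-high barcodes the enteroendocrine list turned to 1.54 and 1.001, Vim to 1.30 and 1.02, Cck to 2.11 and 1.94, Sct to 0.36 and 0.67, Tph1 to 1.60 and 1.21, Chgb to 1.88 and 1.54, Tac1 to 1.88 and 1.70, Chga to 1.54 and 1.001, Insm1 to 0.033 and 0.019, and Gstt1 to 0.17 in set 1. In the range-matched comparison the revival list turned to 1.32 and S100a6 to 1.67 in set 2. With enteroendocrine-high barcodes also left out, the values that turned in set 1 were −0.093 for the histone list, −0.32 for Ccnb1ip1, −0.21 for Hist1h1d, 0.38 for Vim, 0.11 for Cck, 1.20 for Tph1, 0.92 for Tac1 and 0.88 for Gstt1. In set 2 they were 0.34 for the goblet list, 0.62 for the revival list, 0.90 for Vim, 0.51 for Cck, 1.53 for S100a6, 0.41 for Tac1 and 0.50 for Gstt1. The barcodes left out were defined by the enteroendocrine list itself; beyond that the cause was not tested. No paired analysis was possible because the matrix is 1 sample and its labels carry no replicate numbers.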
